A study of Drosophila melanogaster with 2 samples.

Results

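The genes described here encode the translation initiation and elongation factors of the fruit fly. They were taken as every protein-coding gene of the Ensembl BDGP6 annotation whose symbol begins with eIF or eEF, which gave 52 genes, 44 eIF and 8 eEF, of 13945 protein-coding genes on 6 chromosomes. Binding of NC2alpha was measured by ChIP-seq, which sequences the DNA recovered with a protein, in 2 biological replicates of whole Drosophila melanogaster embryos aged 0 to 24 hours, with both sexes pooled. The embryos came from a transgenic line that carries NC2alpha with GFP at its C-terminal end, and an antibody to GFP pulled the protein down. The series holds 1 group, with no untagged or untreated embryos, so no condition was compared and no test was made. The values come from a tagged protein in a mixture of all embryonic tissues and ages.

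NC2alpha is a subunit of negative cofactor 2, a histone-fold dimer that binds the TATA-binding protein on DNA and blocks the entry of TFIIB, and that can also favour some promoters over others. Initiation factors bring the initiator tRNA, the small ribosomal subunit and the capped mRNA together, and elongation factors deliver each aminoacyl-tRNA and move the ribosome along. Many genes of the fly's translation machinery start transcription at a pyrimidine-rich TCT initiator, and many housekeeping promoters hold the DNA replication-related element (DRE), the site of the factor DREF.

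The 6 promoters below are examples in which a DRE or TCT letter match lies at the start site or under the peak. Others that hold such a match, among them eIF6, eIF5B and eEF1alpha1, are not shown. Measured from the DRE centre, with upstream negative, the pooled summit lay at -93 bp in eIF6 and at -130 bp in eIF5B. Each runs 5′ to 3′ on the gene's strand from 100 bases before the most used annotated start through 20 bases from that start on. The eEF2 window begins only 10 bases before the start, because another eEF2 start lies close upstream. Capitals mark a DRE (ATCGAT with A or T on either side, searched on both strands) or a TCT initiator (CTTT with 2 pyrimidines on each side, searched on the gene's strand). The sequence is dm6, read from the RefSeq genome, at chr3R:29220072-29220191 plus strand for eEF1gamma, chr3R:4433876-4433995 minus strand for eIF3a and chr3R:23819218-23819337 minus strand for eIF4G2. The others lie at chr2L:21682097-21682126 minus strand for eEF2, chr3R:4714163-4714282 minus strand for eIF3f1 and chr3L:3223241-3223360 plus strand for eIF1.
eEF1gamma: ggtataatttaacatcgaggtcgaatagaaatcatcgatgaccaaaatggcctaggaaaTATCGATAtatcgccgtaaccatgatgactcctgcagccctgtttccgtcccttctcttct
eIF3a: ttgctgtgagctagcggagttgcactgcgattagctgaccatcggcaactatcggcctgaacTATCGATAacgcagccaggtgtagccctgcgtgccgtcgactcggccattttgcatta
eIF4G2: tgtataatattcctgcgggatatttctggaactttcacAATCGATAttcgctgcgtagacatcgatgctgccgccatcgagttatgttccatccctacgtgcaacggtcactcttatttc
eEF2: tgcagcgcctcgCTCTTTCCtgtcgaaacg
eIF3f1: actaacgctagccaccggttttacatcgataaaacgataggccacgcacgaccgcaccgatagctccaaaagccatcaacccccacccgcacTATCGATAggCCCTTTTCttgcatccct
eIF1: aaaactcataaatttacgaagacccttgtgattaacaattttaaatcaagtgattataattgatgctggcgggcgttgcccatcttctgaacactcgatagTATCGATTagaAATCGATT

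The eEF1gamma promoter holds its DRE 41 bases before the start, and the pooled summit lay 1 bp from the centre of that match. At eIF3a the pooled summit lay 16 bp from the centre of the DRE, and at eIF4G2 3 bp from it. In replicates 1 and 2 the summits lay 46 and 36 bp upstream of the start at eEF1gamma. They lay 18 and 66 bp upstream at eIF3a, and 55 and 73 bp upstream at eIF4G2. At each of these genes the replicates lay farther apart than the pooled summit lay from the DRE centre. At eIF1 both DRE matches lie just after the start, and the summit lay 325 bp before the start, beside the neighbouring ribosomal protein gene RpL28. At eIF3f1 the marked matches lie at the start, but the pooled summit lay 223 bp past it, in the coding sequence. The eIF3f1 peak does not reach the printed window, and in replicate 2 the summit lay 408 bp past the start. A match is a description of the letters and does not show that a factor binds there.

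Peaks were taken from 4 deposited lists. The optimal list holds the 2174 peaks that passed the authors' comparison of replicates, with signal values from 82.0 to 1230. These were also the 2174 strongest peaks of the pooled list. The pooled list and the list of each replicate hold 30000 peaks each and, by their own name, mix peaks with background. A peak was given to a gene when its summit lay within 500 bp of an annotated transcription start site (TSS). The signal value is the authors' own for each peak, and no label or header says what scale it is on. The lists do not state sequencing depth.

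An optimal peak lay at a TSS of 10 of the 52 genes, a share of 19.2%, where 10.5% of all protein-coding genes had one. In the pooled list 37 genes had a peak, or 71.2%, beside 51.3% of all. In the list of replicate 1 there were 40 genes, or 76.9%, beside 52.9%, and in that of replicate 2 there were 32, or 61.5%, beside 45%. Among the 4348 strongest pooled peaks, a list of 2 times the optimal length, 20 genes had a peak, or 38.5%, beside 18.8%. The factors stood above the share of all genes in each of these lists. The stronger part of the optimal list, 1087 peaks, gave 8 factors, beside 5.72% of all genes. The 2174 strongest peaks of replicate 1 gave 11, beside 10.2%, and those of replicate 2 gave 12, beside 10.7%. A window of 200 bp gave 8 factors, beside 7.58%, and a window of 1000 bp gave 11, beside 12.5%. Counting the gene of the nearest TSS alone gave 8, beside 7.69%, and counting the most used start alone gave 8, beside 9.07%.

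**Figure D1:**
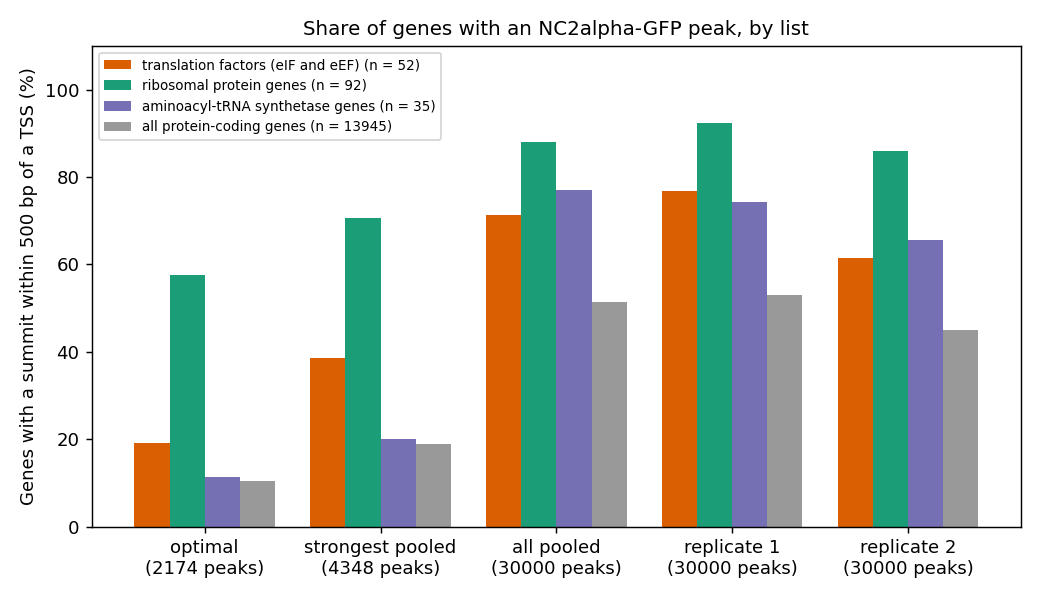
Share of genes, in percent, with a peak summit within 500 bp of a TSS, for 5 peak lists and 4 groups of genes; each bar is 1 count of genes, with no error. Translation factors stand at 19.2% in the optimal list, between all protein-coding genes at 10.5% and ribosomal protein genes at 57.6%.

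Neighbouring genes bear on these counts. Another protein-coding TSS lay within 500 bp for 21 of the 52 genes, or 40.4%, beside 30.9% of all protein-coding genes. Of the 31 factors with no such neighbour 5 had an optimal peak, where 6.5% of all such genes did. Of the 21 with a neighbour 5 had one, where the share of all such genes was 19.4%. With the genes whose peak was shared left out, 6 of 48 factors had an optimal peak, or 12.5%, beside 5.14%. The part of gene spacing in the difference was not tested further.

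Of the 8 elongation factors 4 had an optimal peak, or 50%, beside 6 of the 44 initiation factors, or 13.6%, and 10.5% of all protein-coding genes. Their share was also above that of the initiation factors in the longer lists. Among the 4348 strongest pooled peaks it was 75% beside 31.8%, and in the whole pooled list 100% beside 65.9%. It was 100% beside 72.7% in the list of replicate 1 and 75% beside 59.1% in that of replicate 2. In the pooled list and those of both replicates, the elongation factors did not stand apart from every group of initiation factors. All 8 had a peak in the pooled list and in that of replicate 1. So did all 7 initiation factors outside the eIF2, eIF2B, eIF3 and eIF4 groups. In the list of replicate 2 those 7 all had a peak, while 6 of the 8 elongation factors did. The 4 elongation factors with an optimal peak are eEF1gamma, eEF2, eEF1alpha1 and eEF5. The first is a subunit of the exchange complex that recharges eEF1alpha. The GTPase eEF2 drives translocation, and eEF1alpha1 brings aminoacyl-tRNA to the ribosome. The hypusine-bearing factor eEF5 helps form difficult peptide bonds. With 8 genes, a change of 1 gene moves any share of the elongation factors widely.

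The eEF1gamma peak had a pooled signal of 283, rank 147, with 167 in replicate 1 and 116 in replicate 2. Its summit lay 36 bp upstream of the TSS, at position 29220136 of chromosome 3R, between genes. The eEF2 peak had a pooled signal of 189, rank 398, with 120.1 in replicate 1 and 62.9 in replicate 2. Its summit lay at position 21682133 of chromosome 2L, 17 bp upstream of the most used start and inside the 5' UTR of the transcript from the other start. In both genes replicate 1 was the higher.

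The eEF1alpha1 peak had a pooled signal of 164, rank 573, with 107 in replicate 1 and 55.5 in replicate 2. It lay 31 bp upstream of an internal start, inside an intron, and 956 bp downstream of the most used start of this gene. The eEF5 peak had a pooled signal of 124, rank 989, with 72.4 in replicate 1 and 52.4 in replicate 2, and its summit lay 4 bp upstream of the TSS. Of the remaining elongation genes, eEF1alpha2, the second eEF1alpha gene, reached 73.5 and eEF1beta, another subunit of the exchange complex, 62.8. The eEF1beta summit lay in the coding sequence, 428 bp past the TSS, and replicate 2 was the higher there, at 31.3 against 18.4. The weakest were eEFSec, the selenocysteine elongation factor, at 29.2 and eEF1delta at 24.1, both without a peak in replicate 2 overlapping the pooled one.

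Among the other initiation factors, eIF6 had the strongest peak of all 52 genes. This factor binds the large ribosomal subunit and keeps it from joining too early. Its pooled signal was 454, rank 46, with 237 in replicate 1 and 211 in replicate 2. The ratio of replicate 1 to replicate 2 was 1.13, beside a median of 1.31 over all optimal peaks. The summit was 101 bp upstream of the TSS, in an exon of the antisense gene asRNA:CR45928, whose own start lay 72 bp away, and in an intron of ytr. Peaks carry no strand, so the signal cannot be divided between eIF6 and the antisense gene.

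The second was eIF1, the factor that guards start codon choice. Its peak had a pooled signal of 198, rank 365, with 114 in replicate 1 and 84.9 in replicate 2. The summit, at position 3223016 of chromosome 3L, was 325 bp upstream of eIF1 but 56 bp upstream of RpL28, and the start of a small nucleolar RNA gene, snoRNA:Or-CD11a, lay 475 bp away. The RpL28 start was thus the nearer. Below the optimal list, eIF5B, the GTPase that joins the ribosomal subunits, had 66.3 and eIF2A 57.7. The remaining members of this group, eIF2D, eIF1A and eIF5, had 47.0, 40.8 and 27.1.

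The eIF3 complex, the large scaffold on the small ribosomal subunit, had an optimal peak at 3 of its 16 genes, or 18.8% beside 10.5% of all, and a pooled peak at 10, or 62.5% beside 51.3%. The core subunit eIF3a had a pooled signal of 124, rank 996, with 79.0 in replicate 1 and 56.0 in replicate 2. Its summit was 18 bp upstream of eIF3a and 52 bp upstream of the divergent gene CG1074. The core subunit eIF3c had 101, rank 1439, with 51.8 in replicate 1 and 57.2 in replicate 2. Its pooled summit lay 29 bp inside the 5' UTR, whereas the replicate summits lay 106 bp and 53 bp upstream.

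The eIF3h peak had a pooled signal of 143, rank 747, with 80.1 in replicate 1 and 68.2 in replicate 2. It lay in an intron, 301 bp past the nearest start of eIF3h, 615 bp past the most used one and 364 bp upstream of senju. Next came eIF3k at 73.5, eIF3f1 at 69.9, eIF3m at 61.7 and eIF3d1 at 59.4, all below the optimal list. The eIF3m summit was nearer to CG8323, 59 bp away, than to eIF3m, 167 bp away. No list held a peak at eIF3d2, eIF3g1, eIF3g2 or eIF3i, and eIF3f2 and eIF3j had one in the list of replicate 1 alone. In the eIF3d and eIF3f pairs the gene numbered 1 held the pooled peak, and neither eIF3g gene had one.

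The eIF4 group binds the cap and unwinds the mRNA leader. An optimal peak lay at 1 of its 13 genes, or 7.69%, near the 10.5% of all protein-coding genes. That gene was eIF4EHP, a cap-binding repressor that in Drosophila acts with Bicoid on caudal mRNA. Its pooled signal was 117, rank 1117, with 54.3 in replicate 1 and 65.7 in replicate 2, and the summit lay 138 bp upstream of it and 238 bp upstream of CG18428. The scaffold gene eIF4G2 had 67.6, at a summit 55 bp upstream of its start. CG33111, on the same strand, has an annotated start at that same base, so the peak cannot be divided between them. The helicase gene eIF4A had 62.3, at a summit 65 bp upstream of an internal start and 765 bp past the most used one. The general cap-binding gene eIF4E1 had a peak only in the list of replicate 1, with a signal of 24.5. No list held a peak at eIF4B, eIF4E3, eIF4E4, eIF4E5, eIF4E7 or eIF4H2.

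None of the 3 eIF2 genes, whose product carries the initiator tRNA, and none of the 5 genes of its exchange factor eIF2B had an optimal peak. With 10.5% of all protein-coding genes called, a count of 0 among so few genes does not set them apart. Their pooled signals ran from 32.6 at eIF2Bgamma to 49.5 at eIF2Bepsilon, and eIF2alpha and eIF2Balpha had no peak in any list. The window decided the call at eIF2Bbeta. An optimal peak with a signal of 1094, the third strongest, lay 686 bp from the eIF2Bbeta start and belonged to Ugalt, a nucleotide sugar transporter gene. The next nearest optimal summits lay well beyond the window, 1294 bp from eIF2Bgamma and 1414 bp from eIF3g1. Among the factors with an optimal peak the summit farthest from its start was that of eIF1, at 325 bp.

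**Figure D2:**
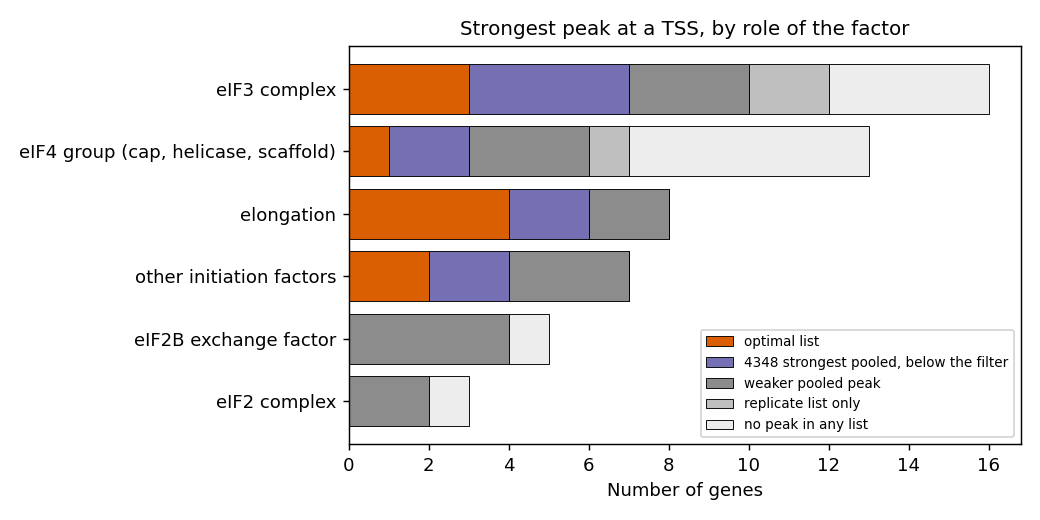
Number of genes in each role, divided by the strongest peak at a TSS. Elongation factors have an optimal peak at 4 of 8 genes and a pooled peak at all 8, and the 7 other initiation factors also all have a pooled peak. The eIF2 and eIF2B genes, 3 and 5 in number, have no optimal peak, beside 10.5% of all protein-coding genes that have one.

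The replicate values show how far the signals vary. All 10 genes with an optimal peak were among the 2174 strongest peaks of each replicate. The optimal list was itself made by comparing the replicates, so this count was not read as a result about the factors. The same share over all genes was not counted. Replicate 1 was the higher at 8 of these 10, with a ratio of replicate 1 to replicate 2 from 0.828 to 1.92 and a median of 1.37. Over all optimal peaks the median ratio was 1.31, with quartiles of 1.04 and 1.76, so eEF2 and eEF1alpha1 lay above the upper quartile. Among the 10 genes just below the optimal list, replicate 1 was the higher at 7, and the ratio ran from 0.588 to 2.74. In replicate 2 the signals of these 10 genes, 16.2 to 39.3, did not overlap those of the 10 optimal genes, 52.4 to 211. In replicate 1 they overlapped, since eIF3f1 at 54.7 was above eIF3c at 51.8. The split between the sets was itself made on the pooled signal of both replicates, so the separation in replicate 2 was not read as a result about the factors. How often it holds over all genes was not counted.

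**Figure D3:**
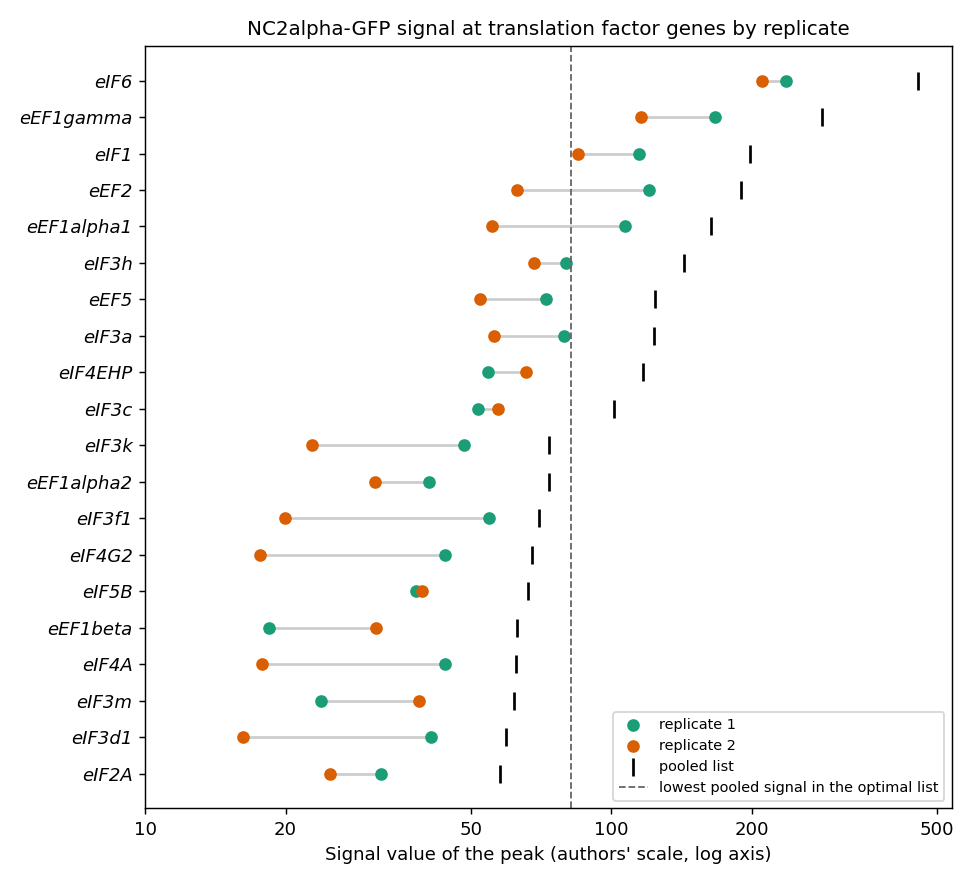
Signal value per peak on a log axis for the 10 factor genes with an optimal peak and the 10 next below; circles are the replicates, the tick is the pooled value and the dashed line is the lowest pooled signal of the optimal list, 82.0. The tagged protein's signal at eIF6 is the highest in both replicates, and the pooled values of the lower 10 genes end at 73.5.

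The median signal of the 10 optimal peaks was 153, beside 123 for the 1450 other protein-coding genes with an optimal peak, and 8 of the 10 were above that median. The same median was 161 for ribosomal protein genes and 121 for aminoacyl-tRNA synthetase genes. The median summit position of the 10 factors was 24.5 bp upstream of the nearest TSS of the gene, beside 110 bp upstream for the 1450 other genes. The median moved to -59.5 bp on the summits of replicate 2 alone and to -32 bp on those of replicate 1 alone. Within 50 bp lay 6 of the 10, beside 22.0% of the others, and within 100 bp also 6, beside 41.1%. Over all 37 factors with a pooled peak the difference was smaller, with 29.7% within 50 bp beside 20% of the other genes with a pooled peak, and 40.5% within 100 bp beside 36.3%. By replicate the count within 50 bp was 5 in replicate 1, beside 22.2% of the others, and 3 in replicate 2, beside 20.1%. Summits of the 2 replicates were 102 bp apart at eIF4EHP and 28 bp apart in the median over the 10 genes, so the positions carry an error of that order. An optimal peak was shared with another protein-coding TSS at 4 of the 10 factors, beside 53.8% of the other genes. The distances of 50 and 100 bp were chosen with the positions known.

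**Figure D4:**
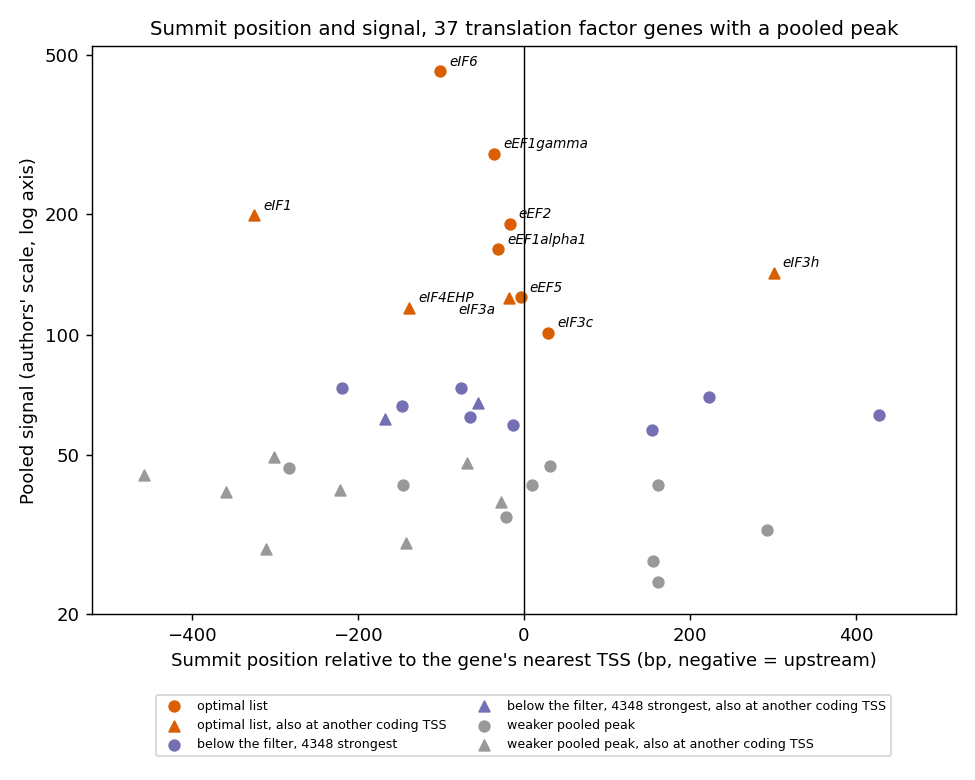
Position of the pooled summit relative to the nearest TSS of the gene, in bp, against the pooled signal on a log axis, for the 37 factor genes with a pooled peak; triangles mark peaks that also lie at another protein-coding TSS. Of the 10 optimal peaks 6 lie within 50 bp of the start, and eIF1 and eIF3h lie farthest from it, at 325 bp upstream and 301 bp downstream.

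The promoters of the factors were then read for core promoter motifs at the most used start of each gene. A DRE match lay within 250 bases before to 50 after the start in 23 of the 52 genes, or 44.2%, beside 16.4% of all protein-coding genes, 38% of ribosomal protein genes and 17.1% of aminoacyl-tRNA synthetase genes. It was present in 5 of the 10 factors with an optimal peak, beside 21.8% of all protein-coding genes with one. Of the 42 factors without an optimal peak 18 had it. Ohler motif 6 (GTAT, then A or T, then TTT) was in 28.8%, beside 12.3% of all, and Ohler motif 7 (CATCNCTA) in 15.4%, beside 6.51%. Ohler motif 1 (GGTCACAC) was in 13.5%, beside 7.79%. The E-box CAGCTG was in 7.69%, beside 17.8% of all, GAGAGAG in 1.92%, beside 6.16%, and no factor had a TATA box match, beside 7.19% of all. These were searched on both strands, except the TATA box (C or G, then TATA, A or T, A, A or T, beginning 45 to 20 bases before the start), which was searched on the gene's strand.

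The TCT initiator count depended on how its window was read. With the first base 12 bases before to 8 after the start, 4 factors had it, eEF2, eIF3f1, eIF3e and eEF1alpha1, or 7.69%, beside 1.2% of all genes and 57.6% of ribosomal protein genes. The matches begin 2 bases after the start base in eEF2 and eIF3f1, 6 in eIF3e and 8 in eEF1alpha1, so none spans the annotated start. With the whole motif inside the same window no factor had it, beside 0.567% of all genes and 14.1% of ribosomal protein genes. The narrower reading was tried first and the wider one was taken after its count was seen. In eEF1alpha1 the match lies at the most used start, not at the internal start that held the peak. The ordinary Initiator (TCA, G or T, T, C or T) was in 1 factor, eEF1alpha2, under either reading, beside 14.5% of all genes under the wider one.

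A DRE match and a pooled summit at the same start were found together at 15 factors. The summit lay within 25 bp of the DRE centre at 6 of them, or 40%, beside 10.8% of 1294 other genes. Of these, eIF3a, eIF4G2, eIF4E6, eIF1A and eIF2gamma had a peak that also lay at another protein-coding TSS, and only eEF1gamma did not. At eIF1A the summit was 3 bp from the start of Vps39 and 222 bp upstream of its own. The distance of 25 bp was chosen after the factors' own distances were seen. At 10 bp the count was 2, or 13.3% beside 4.33%, at 50 bp it was still 6, beside 23.8%, and at 100 bp it was 9, or 60%, beside 40.3%. Among 20 ribosomal protein genes the count was 3 at 25 bp and 12 at 50 bp, so the order of the groups changed with the distance.

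**Figure D5:**
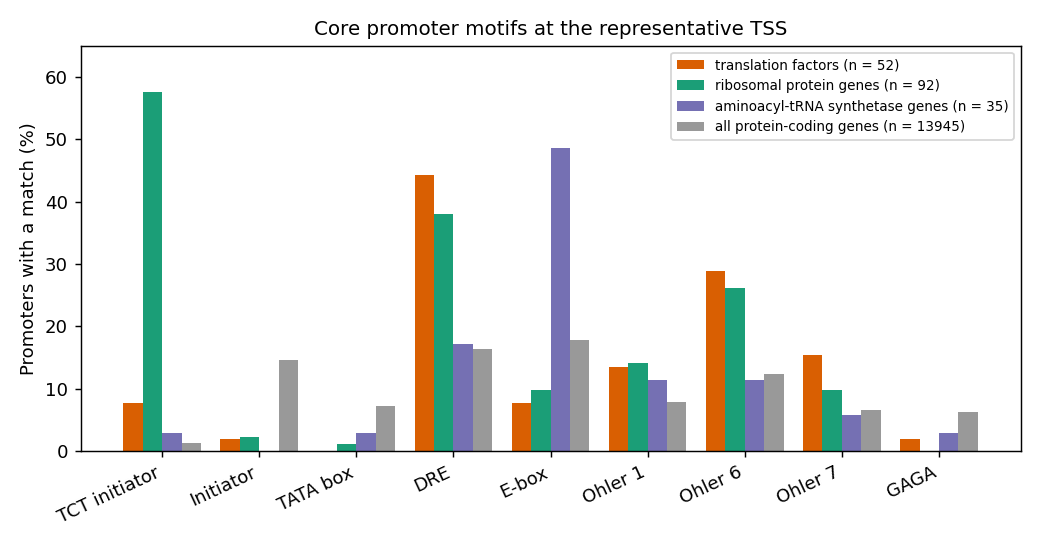
Share of promoters, in percent, with a letter match to each motif at the most used start, for 4 groups of genes; each bar is 1 count, with no error. Translation factors have a DRE match in 44.2% and a TCT initiator in 7.69% under the wider window, and in none of the 52 genes under the narrower one.

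Of 30 further genes of the pathway, fixed as a list of partners, release factors and mitochondrial factors, 5 had an optimal peak, or 16.7%, beside 10.5% of all protein-coding genes. A pooled peak lay at 26 of the 30, or 86.7%, beside 51.3% of all and 71.2% of the translation factors. The strongest was larp, an mRNA-binding protein gene, with a signal of 557. Thor, the binding protein that blocks eIF4E, had 256, and pAbp, the poly(A)-binding protein gene, had 155. Gcn2, a kinase of eIF2alpha, had 117 and Pdcd4, whose mammalian counterpart holds back eIF4A, had 108. No optimal peak lay at the 5 release and recycling genes, the 2 hypusine enzyme genes or the 9 mitochondrial factors. The share of all genes was 10.5%, so counts of 0 in groups this small do not set them apart. In the pooled list all 5 release and recycling genes, both hypusine enzyme genes and 5 of the mitochondrial factors had a peak. An optimal peak lay at 4 of the 35 aminoacyl-tRNA synthetase genes, or 11.4%, near the share of all genes. In the pooled list 77.1% of the synthetase genes and 88% of the ribosomal protein genes had a peak, both above the 71.2% of the factors. The synthetase share was 74.3% in the list of replicate 1, beside 76.9% of the factors. It was 65.7% in that of replicate 2, beside 61.5%.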

How the data were processed

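The authors deposited peak lists on dm6. In each, a signal score per peak and a summit offset (the other value used) were read as deposited. The aligner, the peak caller and the threshold between replicates: not given in the sources used here. Lists on dm3 were not used. Peak lists do not state depth, so counting intervals were not given. Starts came from Ensembl release 115, and every peak end fitted the reference chromosome lengths. A summit was assigned to each gene with a TSS within 500 bp. The most used start was the one with most transcripts, then the most upstream.

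Counts were made in Python 3.11.15 with numpy 2.4.6, pandas 2.3.3 and matplotlib 3.10.9, and assignment and motif search were tested on simulated data. The genes, lists and motifs were chosen with earlier results of these data known. Named genes are those with an optimal peak, those among the 4348 strongest pooled peaks, family members with no peak in any list, genes that share a named peak and pathway genes with an optimal peak; others were named after their values were seen. Of the pathway symbols, Rli matched no gene.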

Additional observations from a re-analysis of the deposited data

How the results depend on the processing

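No paired analysis was possible because the series holds 1 group and no comparison between groups. The count of 10 factors with an optimal peak was 8 with a window of 200 bp, 11 at 1000 bp, and 8 with the nearest gene only, with the most used start only or in the stronger part of the list. It moved to 20 in the 4348 strongest pooled peaks, to 6 with shared peaks left out and to 5 of the 31 genes without a close neighbour, an alternative added after seeing the data; the last 2 take fewer genes. Without either replicate it was 11 to 12. The pooled count of 37 was 28 to 42 over windows, 31 with the nearest gene only and 32 to 40 without either replicate. The median signal of 153 was 148 to 165 without either replicate, after each replicate was rescaled to the pooled list by its median ratio over all optimal peaks, 1.76 for replicate 1 and 2.30 for replicate 2, which by construction brings the values close; unscaled, the medians were 93.4 in replicate 1 and 64.3 in replicate 2. The median summit position was -59.5 to -32 without either replicate, beside -24.5; the cause was not tested.

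The DRE count was 24 with any annotated start. The TCT count of 4 fell to 0 with the whole motif inside the window. A shorter pyrimidine motif, CTCTTT, was picked after the promoters were read and was in 6 factors, beside 1.13% of all genes; 3 forms were tried, the others being CTCTTTT in 5 factors and CTCTT in 7, so its excess is no evidence. Replicates number 2 and depth is unknown, which limits the precision of every signal value.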
